A study of Mus musculus with 103 samples.

Results

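Ion and organic anion transporters of the solute carrier (SLC) families SLC4, SLC5, SLC8, SLC9, SLC10, SLC12, SLC13, SLC16, SLC20, SLC22, SLC23, SLC26, SLC34, SLC47 and SLCO were described across mouse tissues, sorted lymphocytes and a cell line. Members were all probe sets annotated to a single gene whose symbol carries one of these family names. The rule found 142 probe sets of 92 genes among 22690 probe sets on the array. Measured values played no part in the rule. Because it works on symbols, it also takes in the scaffold genes Slc9a3r1 and Slc9a3r2 and the adaptor gene Slc4a1ap, which encode no transporter.

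SLC proteins move solutes across membranes, either along a gradient or coupled to sodium, protons or another ion. In the kidney tubule they recover phosphate, glucose, sulfate, bicarbonate and salt from the filtrate and secrete organic anions and cations. In liver cells they take up bile acids and drugs from the blood, and in neurons the potassium chloride cotransporter Slc12a5 keeps intracellular chloride low. The organic anion transporters of SLC22 and the organic anion transporting polypeptides of SLCO are best known from kidney, liver and the blood-brain barrier.

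The study set an amplification protocol for very small RNA amounts, called BIIB, beside the standard one-cycle labelling of the array maker. Commercial total RNA of 8 mouse tissues (brain, embryo, heart, kidney, liver, lung, ovary and spleen) was hybridised on 1 array per tissue after one-cycle labelling of 1 ug and on 1 array per tissue after BIIB labelling of 500 pg. T and B cells were flow-sorted from the splenocytes of 1 normal mouse into 18 BIIB arrays. Of these, 12 held 100 cells in 6 mixing ratios with 2 arrays each, and 6 held 500 cells with 1 array per ratio. RAW267 cells, a cultured line whose arrays carried a summed macrophage marker signal of 419246 to 861741, gave 11 BIIB arrays of 50 to 10000 cells. The labels give no strain, age, sex or treatment for any group, and they do not say that arrays of a tissue came from separate animals. The p-values therefore rest on array-to-array spread alone, and that spread can be technical. For the tissues, with 1 array per protocol, that spread is how far the protocol difference varies between tissues. In whole-tissue RNA, fewer cells of a type and less RNA per cell cannot be told apart.

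The 16 tissue arrays were checked against tissue markers, and the labels brain and liver looked exchanged in both protocols. Summed brain marker signal was 306930 (one-cycle) and 610808 (BIIB) on the arrays labelled liver, and 1152 and 579 on those labelled brain. Summed liver marker signal was 1997921 and 3578830 on the arrays labelled brain, and 819 and 916 on those labelled liver. The other 6 tissues had their own marker list highest. The arrays are named by their labels throughout, so "arrays labelled brain" are the ones with liver markers.

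Signals are MAS5 values, scaled to a common mean, and differences are on the log2 scale after adding a pseudocount, which understates changes of dim probe sets. A probe set was tested where its mean signal over the arrays compared was at least 500. It was called where limma's Benjamini-Hochberg adjusted p was below 0.05 and the difference at least 2-fold. In the tissues, 93 member probe sets of 63 genes passed the filter and 49 did not. The dimmest member inside it was a probe set of Slco1b2 (mean 510.1) and the brightest outside it was Slc9a8 (494.3). Of the 49, 31 reached a signal of 500 on at least 1 tissue array. A member bright in a single tissue passed this filter through that tissue, so the counts below describe the tested probe sets and not all members.

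Most tested members had one tissue that stood out. The same tissue was highest in both protocols for 78 of the 93 (83.9%), against 61.9% of all 15180 probe sets tested. Kidney was that tissue for 39 members (41.9%, against 6.38% of all), lung for 15 (16.1% against 6.99%), the arrays labelled brain for 10 (10.8% against 6.71%), those labelled liver for 6 (background 12.5%), spleen for 5 (12.5%) and heart for 3 (7.55%). Embryo and ovary were highest in both protocols for none (3.70% and 5.48% of all). The highest tissue exceeded the second at least 8-fold in both protocols for 27 members (29.0%, against 3.95% of all) and at least 16-fold for 18 (19.4% against 1.85%). Among the 19 genes with several tested probe sets, 18 had one tissue highest by mean for all of them. The exception was Slc12a7, highest in heart by one probe set and in kidney by the other.

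**Figure D1:**
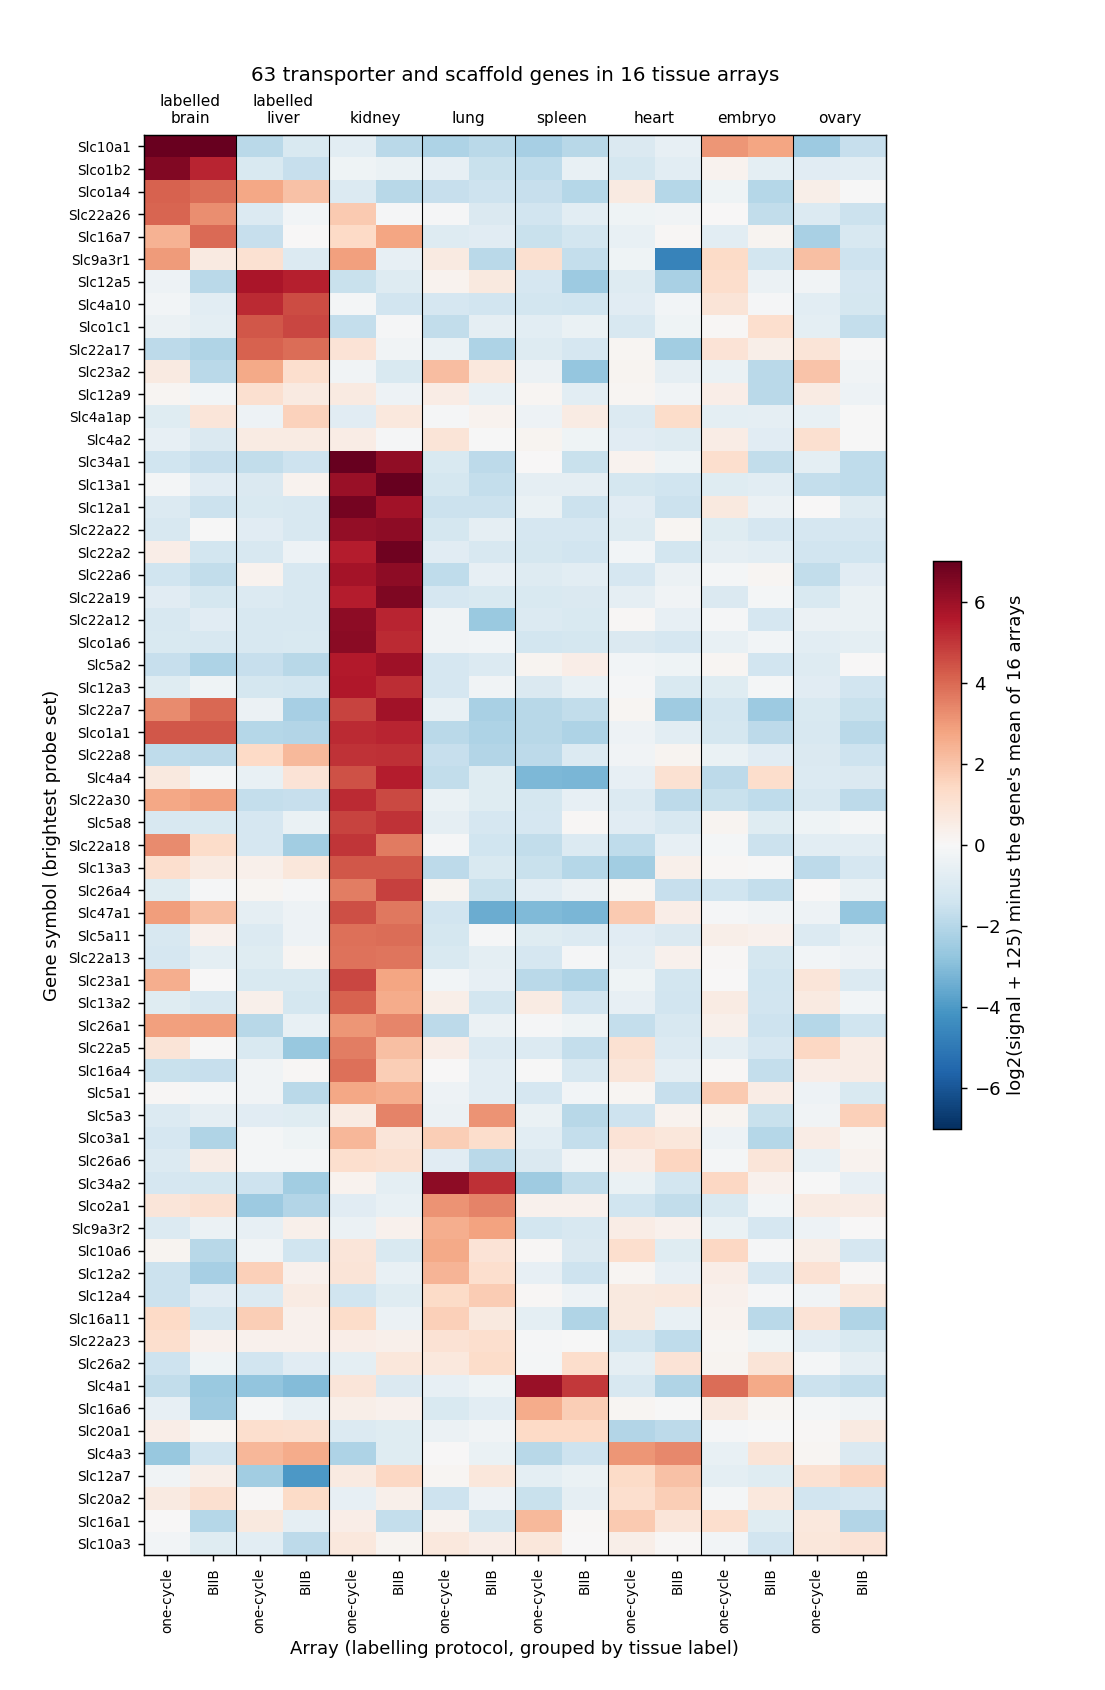
Heat map of the 63 tested genes (rows, brightest probe set of each) in the 16 tissue arrays (columns, 2 protocols per tissue label). Colour gives the log2 signal (pseudocount added) minus the gene's mean over the 16 arrays, and the red block of kidney genes covers about as many rows as the blocks of the other tissues together.

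Against the other 7 tissues, 47 of 93 members rose in kidney and 7 fell. Over all probe sets, 10.6% were called higher and 12.4% lower in that comparison. The median difference of the members was 1.27 on the log2 scale and that of all probe sets was -0.13. The arrays labelled brain had 23 members called higher and 32 lower (background 10.7% and 24.0%). With quantile normalization that split was 24 higher and 20 lower (12.7% and 16.5%), and the median of all probe sets moved from -0.42 to -0.18. In ovary that median moved from 0.17 to 0.06. Lung had 21 higher and 26 lower (12.4% and 9.0%), and the arrays labelled liver had 13 higher and 29 lower (15.3% and 19.4%). Spleen had 6 higher and 47 lower (14.8% and 19.5%), with a member median of -1.14 against -0.06 for all probe sets. Heart had 7 higher and 20 lower (10.4% and 12.2%), embryo 5 and 15 (10.3% and 5.71%), and ovary 2 and 25 (8.83% and 6.59%). In either direction, 34.7% of all probe sets were called for the arrays labelled brain, 34.7% for those labelled liver, 34.2% for spleen, 23% for kidney, 22.6% for heart, 21.4% for lung, 16% for embryo and 15.4% for ovary. These totals moved by more than 1.5 times when some arrays were left out. Without its BIIB array, embryo had 5 called members, heart 11, lung 21, ovary 5 and spleen 35. Without the one-cycle array, the arrays labelled brain had 33, embryo 13, lung 28, ovary 11 and spleen 30. These 8 comparisons share their arrays, so a member far above the rest in kidney is pushed towards a lower call elsewhere.

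**Figure D2:**
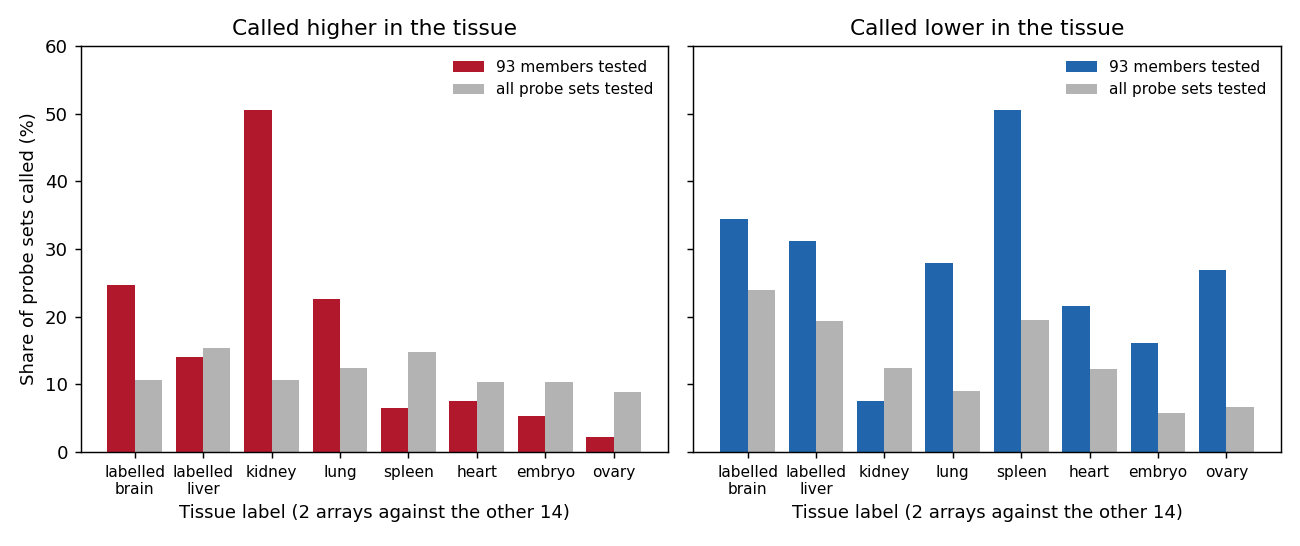
Bars give the share of probe sets (%) called higher (left) and lower (right) in each tissue label, 2 arrays against the other 14, for the 93 tested members (colour) and for all 15180 probe sets (grey). Members exceed the background most in kidney among higher calls, 50.5% against 10.6%, and in spleen among lower calls, 50.5% against 19.5%.

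The largest kidney differences were those of Slc34a1 and Slc13a1, sodium-coupled carriers of the proximal tubule. Slc34a1 (1423279_at), the sodium phosphate cotransporter of the proximal tubule, had a signal of 85801 (one-cycle) and 34617 (BIIB) in kidney. The other 14 arrays ranged from 7.10 to 938, with a median of 49.0. No other array came near the kidney pair, and the difference was 7.84 ± 0.45 (SE) on the log2 scale (limma, adjusted p = 1.9e-07). Slc13a1, the sodium sulfate cotransporter, had 30607 and 87862 in kidney against 11.3 to 418 elsewhere (7.78 ± 0.38, adjusted p = 5.8e-08). Slc5a2, the glucose cotransporter SGLT2 of the early proximal tubule, had 32872 and 42303, and its highest other array was the spleen BIIB array with 827 (6.56 ± 0.36, adjusted p = 1.4e-07). Slc4a4, which exports bicarbonate across the basolateral membrane, had 26796 and 56196 by its brightest probe set (5.70 ± 0.54). The highest other value of that probe set was 2705 in embryo. The Slc4a4 probe sets 1452071_at and 1426432_a_at were also highest in kidney. Both were called higher on the arrays labelled liver too (2.39 ± 0.55 and 1.80 ± 0.39). Slc5a1, the glucose cotransporter SGLT1 of the late proximal tubule and gut, differed less, with 3244 and 2791 against up to 1711 in embryo (3.00 ± 0.43, adjusted p = 2.96e-04). In each of these the kidney pair lay above all other arrays. Genes were named for a tissue as called members highest or lowest there in both protocols, or from a list of carriers. Here and below, a pair lying apart from the other arrays is therefore largely set by that choice.

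The salt carriers targeted by diuretics followed the same pattern. Slc12a1, the furosemide-sensitive cotransporter of the thick ascending limb, had 40905 and 23556 in kidney, with the other arrays from 12.5 to 513 and a median of 72.5. The difference was 7.19 ± 0.26 (adjusted p = 1.1e-08). Slc12a3, the thiazide-sensitive cotransporter of the distal convoluted tubule, had 17167 and 12719, against 12.5 to 204 elsewhere (6.18 ± 0.35, adjusted p = 1.7e-07). For both genes the kidney pair stood alone. Slc26a4, the chloride bicarbonate exchanger pendrin, had 5142 and 11674 against 12.2 to 366 (4.79 ± 0.48). Kidney markers summed to 403746 and 410200 on the kidney arrays and to at most 40548 on any other, that one labelled liver.

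The SLC22 family gave the most kidney calls, with 16 of its 19 tested probe sets higher and none lower. Slc22a6, the basolateral organic anion transporter OAT1, had 31148 and 41622 in kidney against 33.8 to 521 in the other arrays (6.90 ± 0.39, adjusted p = 1.9e-07). Slc22a8, the organic anion transporter OAT3, had 19167 and 20181, and its highest other value was 2722 on the BIIB array labelled liver (5.80 ± 0.30, adjusted p = 9.7e-08). Slc22a12, the urate exchanger URAT1, had 63493 and 33350 against up to 755 (6.65 ± 0.41, adjusted p = 3.7e-07). Slc22a2, the organic cation transporter OCT2, had 16451 and 41131 against up to 384 (7.04 ± 0.44). For all 4 genes the kidney pair lay above every other array, which the choice of genes favoured.

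The family members Slc22a22 and Slc22a19 also stood out in kidney. Slc22a22 had 21496 and 23178 against 5.90 to 211 (7.10 ± 0.31). Slc22a19, an organic anion transporter, had 14070 and 29301 against 13.1 to 167 (6.85 ± 0.29). Slco1a6, an organic anion transporting polypeptide, had 24976 and 11669 against 5.20 to 154 (6.61 ± 0.27, adjusted p = 1.8e-08). Several SLC22 and Slco1a genes are close copies, and the files do not show how far their probe sets take signal from one another. In SLC13, 4 of 4 tested probe sets were called higher in kidney, in SLC5 5 of 6 and in SLC26 3 of 4. SLCO had 6 of 14, SLC12 and SLC4 3 of 10 each, SLC16 2 of 5 and SLC9 2 of 9. Some of these probe sets share a gene. In SLC12 2 probe sets fell and in SLC4 1 fell. SLC10 had 2 of 4 tested probe sets lower and SLC20 1 of 3, with 0 higher in both. Of all probe sets, 10.6% were called higher and 12.4% lower in kidney. In SLCO 1 probe set fell in kidney, that of Slco1a4 (-1.64 ± 0.42, adjusted p = 0.013), and its call was lost without the protocol term (adjusted p = 0.13) and without either kidney array (adjusted p = 0.14 and 0.090).

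**Figure D3:**
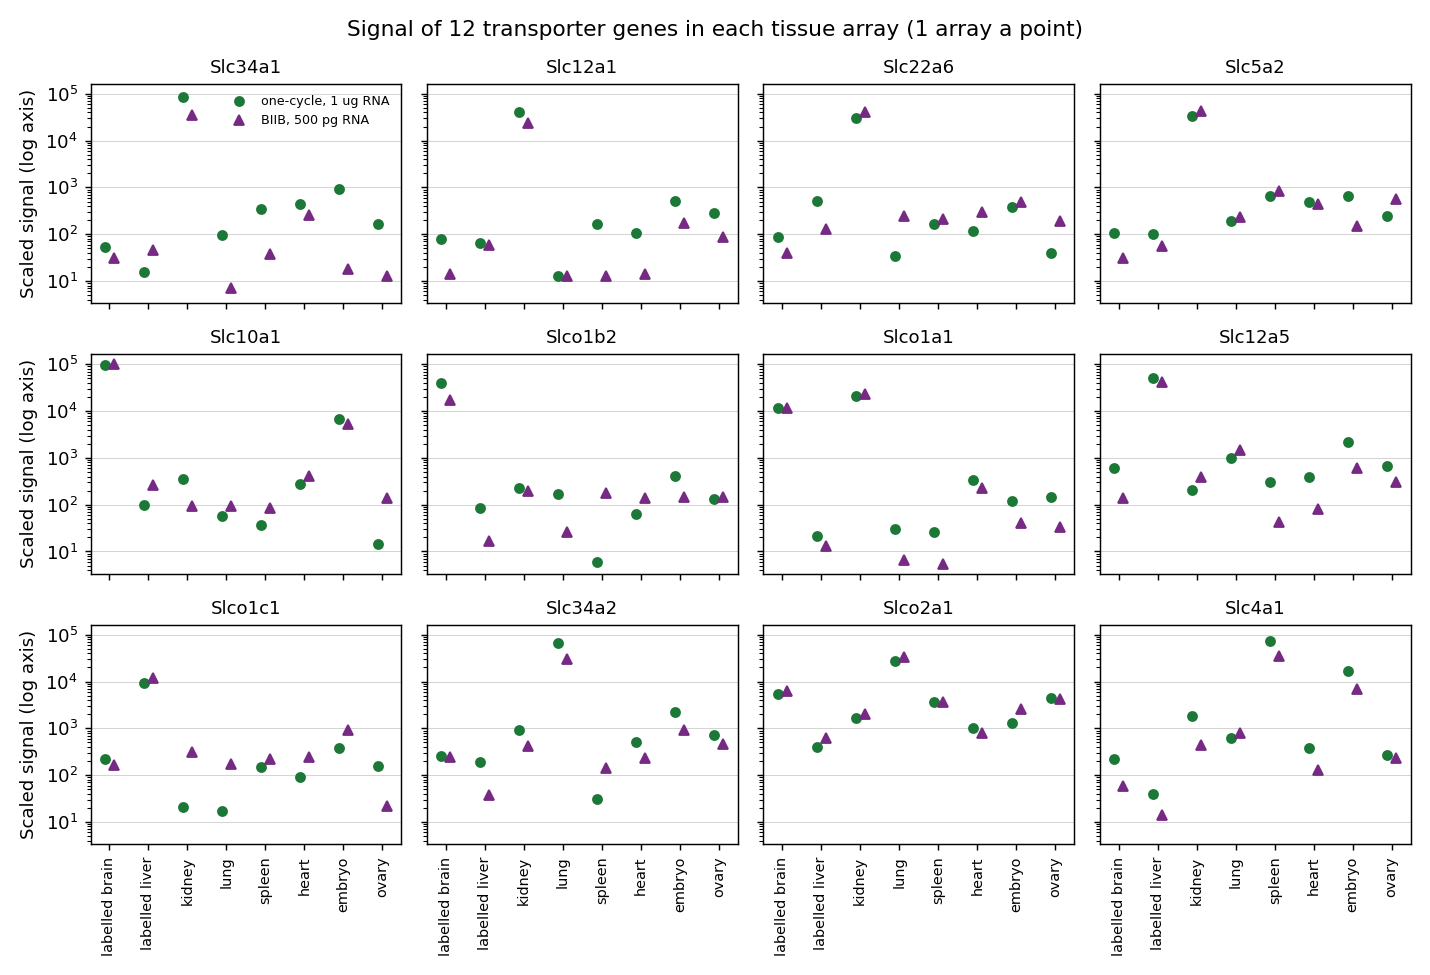
Scaled signal (log axis) of 12 genes on each tissue array, with green circles for one-cycle and purple triangles for BIIB labelling. Slc34a1, Slc12a1, Slc22a6 and Slc5a2 are high on the kidney pair alone, Slc10a1 on the arrays labelled brain and, lower, in embryo, and Slco1a1 on both the kidney arrays and those labelled brain.

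Some carriers were high both in kidney and on the arrays labelled brain. Slco1a1 had 21415 and 23306 in kidney and 11779 and 11750 on the arrays labelled brain, against 5.50 to 331 on the rest. It was called higher in both comparisons (6.03 ± 0.23 and 4.98 ± 0.23). Slc22a7, the organic anion transporter OAT2, had 20005 and 45049 in kidney and 7382 and 12524 on the arrays labelled brain (6.05 ± 0.60 and 4.19 ± 0.60). Slc26a1, a sulfate anion exchanger, had 4491 and 5640 in kidney and 3905 and 4046 on the arrays labelled brain (3.71 ± 0.47 and 3.33 ± 0.47). Slc47a1, the MATE1 exchanger that extrudes organic cations at the apical or canalicular membrane, had 32283 and 18527 and then 10897 and 6056 (4.69 ± 0.44 and 2.89 ± 0.44). For each of the 4 genes, by the brightest probe set, both kidney values were above both values labelled brain within the same protocol. The dimmer Slco1a1 probe set 1449844_at kept this order with one-cycle but not with BIIB labelling. Its BIIB differences from the other tissues were 4.54 in kidney and 4.80 on the array labelled brain.

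On the arrays labelled brain, the bile acid and drug uptake carriers of hepatocytes led. Slc10a1 (1424898_at), the sodium taurocholate cotransporter NTCP, had 98598 (one-cycle) and 101282 (BIIB). Embryo followed with 6690 and 5366, and the remaining 12 arrays had at most 415. The difference was 7.94 ± 0.34 (adjusted p = 1.3e-08), and in embryo Slc10a1 was also called higher (3.33 ± 0.34, adjusted p = 2.9e-05). The summed liver markers of embryo were 580699 and 786762, the second highest of the 8 tissues. The part of that in the embryo value was not tested. Slco1b2, the mouse liver organic anion uptake carrier, had 39387 and 17342 against 6.0 to 408 elsewhere (6.74 ± 0.39, adjusted p = 1.2e-07). The 5 Slco1b2 probe sets reached at most 572 on the embryo arrays. Of these, 1452569_at and 1427825_at peaked at 572 and 368 over all tissue arrays, those labelled brain included. They therefore carry no information on embryo.

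Slco1a4, an uptake carrier of liver and brain endothelium, was high on both exchanged pairs. It had 9044 and 7780 on the arrays labelled brain and 3362 and 2061 on those labelled liver. It was called higher in both (4.58 ± 0.42 and 2.73 ± 0.42, adjusted p = 5.2e-06 and 3.1e-04). Slc22a26 had 7537 and 4287 on the arrays labelled brain and a highest other value of 1535 in kidney (4.18 ± 0.46). Slc16a7, the monocarboxylate transporter MCT2, had 9133 and 26709 there, and the kidney BIIB array reached 11511, so the groups overlapped (3.65 ± 0.31, adjusted p = 2.5e-06). Slc9a3r1, a PDZ scaffold of apical membranes, had 27770 and 5360, overlapping with kidney. Its call (2.08 ± 0.37) was lost without the protocol term (adjusted p = 0.37).

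Slc12a2, the sodium potassium chloride cotransporter of secretory and many other cells, had 1081 and 543, and every other array was higher (-2.18 ± 0.24, adjusted p = 2.5e-05). Slco3a1, a widely expressed organic anion carrier, had 736 and 314 against a median of 2301 (-1.88 ± 0.31, adjusted p = 5.0e-04), the lowest of the 8 tissues in each protocol.

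The promoters of 4 genes are shown, chosen by a half-site of HNF1, a transcription factor of kidney tubule and liver. They are the members called higher in kidney or on the arrays labelled brain whose windows hold it. The windows are 250 bases before to 50 after the annotated start, in RefSeq's GRCm38.p6, all on the plus strand: Slc34a1 chr13:55399398-55399697, Slc22a6 chr19:8617746-8618045, Slc22a8 chr19:8592932-8593231 and Slco1b2 chr6:141629268-141629567. Capitals mark GTTAAT or, read from the other strand, ATTAAC.
Slc34a1: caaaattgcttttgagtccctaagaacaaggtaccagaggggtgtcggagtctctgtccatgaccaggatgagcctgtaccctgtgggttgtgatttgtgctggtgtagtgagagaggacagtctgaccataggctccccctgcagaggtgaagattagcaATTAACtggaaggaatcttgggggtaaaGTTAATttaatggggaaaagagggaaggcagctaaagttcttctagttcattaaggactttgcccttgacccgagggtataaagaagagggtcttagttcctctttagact
Slc22a6: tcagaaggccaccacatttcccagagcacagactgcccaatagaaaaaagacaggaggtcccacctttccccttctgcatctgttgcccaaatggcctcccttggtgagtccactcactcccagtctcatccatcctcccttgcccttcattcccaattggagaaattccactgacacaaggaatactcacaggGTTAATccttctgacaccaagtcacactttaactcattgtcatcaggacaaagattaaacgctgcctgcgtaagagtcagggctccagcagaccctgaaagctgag
Slc22a8: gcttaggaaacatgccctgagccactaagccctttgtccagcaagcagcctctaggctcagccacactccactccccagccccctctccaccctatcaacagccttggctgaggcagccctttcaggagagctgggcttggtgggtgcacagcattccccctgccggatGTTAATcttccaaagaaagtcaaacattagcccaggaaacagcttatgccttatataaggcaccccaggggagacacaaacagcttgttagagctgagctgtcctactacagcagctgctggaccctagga
Slco1b2: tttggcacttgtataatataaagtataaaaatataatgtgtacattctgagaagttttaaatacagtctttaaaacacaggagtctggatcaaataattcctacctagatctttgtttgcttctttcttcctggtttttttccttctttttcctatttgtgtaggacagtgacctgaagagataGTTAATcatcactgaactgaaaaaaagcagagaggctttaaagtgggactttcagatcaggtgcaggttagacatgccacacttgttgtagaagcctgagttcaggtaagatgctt

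The match in Slc34a1 nearest the start lies 61 bases before it, and the others lie 56 (Slc22a6), 81 (Slc22a8) and 66 (Slco1b2) bases before. The half-site was found in 7.10% of all 32851 promoter windows, in 10 of 90 member windows (11.1%), and in 4 of 37 windows of members called higher in kidney or on the arrays labelled brain (10.8%). The last share is near the background, so the match describes these 4 sequences and not the kidney group. The HNF4 core CAAAGTCCA, searched on both strands, was in 0.475% of all windows and in none of the 90. A GATA match, AGATAA on either strand, was in 11.2% of all windows and 13.3% of the members'. RefSeq's table held a window for 75 of the 92 member genes.

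On the arrays labelled liver, which carried the brain markers, neuronal and barrier carriers led. Slc12a5 (1451674_at), the neuronal potassium chloride cotransporter KCC2, had 51655 (one-cycle) and 42708 (BIIB), and the highest other value was 2194 in embryo (6.40 ± 0.43, adjusted p = 6.2e-07). Slc4a10, a sodium-driven bicarbonate carrier of neurons and choroid plexus, had 12892 and 8380 against 7.0 to 536 (5.60 ± 0.30, adjusted p = 1.8e-07). Slco1c1, the thyroxine carrier of brain capillaries, had 9229 and 11717 against 16.9 to 934 (5.14 ± 0.39, adjusted p = 1.6e-06). Slc22a17, a family member also described as a lipocalin receptor, had 20157 and 16862 against 89.3 to 2142 (4.59 ± 0.39). None of these 4 overlapped with any other tissue, which the choice of genes favoured.

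Slc4a3, an anion exchanger of excitable tissue, had 4964 and 5885 on the arrays labelled liver (2.82 ± 0.43) and was highest in heart with 8527 and 10252 (3.71 ± 0.43, adjusted p = 8.5e-05). Slc22a8, named above for kidney, was also called higher on the arrays labelled liver (2.09 ± 0.30, adjusted p = 1.8e-04), with 1405 and 2722. The choroid plexus markers of those arrays summed to 3311 and 2896, against 60617 and 46266 in kidney. Slc23a2, an ascorbate carrier, had 7248 and 2562, the highest of the 8 tissues in each protocol (2.20 ± 0.34), and its call was lost without the protocol term (adjusted p = 0.095).

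The arrays labelled liver were also the lowest for several carriers. Slc12a7, the potassium chloride cotransporter KCC4, had by its brighter probe set 574 and 110, below every other array (2022 to 15816, median 5389). The difference was -3.70 ± 0.38 (adjusted p = 1.5e-05). Slco2a1, the prostaglandin uptake carrier, was lowest there too, with 392 and 629 against 797 and above (-2.63 ± 0.25). Slc22a5, the carnitine carrier OCTN2, had 846 and 197 and overlapped with spleen (-2.11 ± 0.29). Slc4a1 had 40.4 and 14.2, under all other arrays (-3.30 ± 0.35).

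In lung, the epithelial phosphate carrier and the prostaglandin carrier led. Slc34a2 (1416854_at), the phosphate cotransporter of alveolar type II cells, had 65243 (one-cycle) and 30038 (BIIB) against 31.0 to 2231 in the other arrays, of which embryo was highest (6.50 ± 0.34, adjusted p = 3.3e-07). Slco2a1 had 27231 and 33446, with 392 to 6423 elsewhere and a median of 2287 (3.78 ± 0.25, adjusted p = 2.1e-06). Both lung values were above every other array for both genes. Slc9a3r2, a PDZ scaffold of the sodium proton exchanger, had 11734 and 14522 by its brightest probe set against at most 2822 (3.07 ± 0.29, adjusted p = 2.5e-05). All 6 of its probe sets were called higher in lung, and they share a gene and are not independent. The summed endothelial markers of lung were 100974 and 100275, against at most 27403 elsewhere. Their part in the Slco2a1 and Slc9a3r2 values was not tested.

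Slc12a2 had 17111 and 7517 in lung, the highest of the 8 tissues in each protocol (2.02 ± 0.24). Slc10a6, a carrier of sulfated steroids, had 3228 and 943 (2.06 ± 0.25). Both calls were lost without the protocol term (adjusted p = 0.060 and 0.16). Slc12a4, the widely expressed cotransporter KCC1, had 3619 and 4937 and no overlap with the other arrays (1.78 ± 0.34). Its adjusted p was 0.051 without the lung BIIB array.

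Spleen and embryo shared the red cell anion exchanger. Slc4a1 (1416464_at), known as band 3, had 73998 and 34360 in spleen and 16853 and 6802 in embryo, and the remaining 12 arrays had 14.2 to 1860. It was called higher in both (6.28 ± 0.35 and 3.74 ± 0.35, adjusted p = 4.9e-07 and 1.6e-05). Summed erythroid markers were 181560 and 154903 in spleen, 60506 and 46409 in embryo, and 834 to 16917 on the other arrays. Both these sums and Slc4a1 were highest in spleen and next in embryo. In heart the sums were 9985 (one-cycle) and 16917 (BIIB). Slc4a1 was called lower there (-1.87 ± 0.35, limma adjusted p = 0.0021). The part of the markers in the Slc4a1 values was not tested.

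Other spleen carriers differed less. Slc16a6, a monocarboxylate transporter family member, had 5115 and 2792 against at most 1244 elsewhere (2.46 ± 0.35, adjusted p = 1.9e-04). Slc20a1, the phosphate carrier PiT1, had 9860 and 9925, just above the 8291 of the one-cycle array labelled liver (1.61 ± 0.22, adjusted p = 1.6e-04). Of 47 lower calls, Slc4a4 was among the clearest, with 14.1 and 10.9 against 221 and above elsewhere (-3.61 ± 0.54). Slc23a1, an epithelial ascorbate carrier, had 56.3 and 23.4 against 127 and above (-2.32 ± 0.42).

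In heart, Slc4a3 was joined by Slc20a2, the phosphate carrier PiT2, with 8998 and 13541 (1.66 ± 0.24), and by Slc12a7 with 9619 and 15816 (1.95 ± 0.38). Both overlapped with other tissues. The call of Slc20a2 was lost without the protocol term (adjusted p = 0.053) and that of Slc12a7 without the heart BIIB array (adjusted p = 0.074). Slc16a1, the lactate carrier MCT1, had 17087 and 8369 in heart and 22886 and 4904 in spleen. It was called higher in both (1.54 ± 0.31 and 1.35 ± 0.31), and without the protocol term in neither (adjusted p = 0.40 and 0.38). Slc20a1 was lowest in heart, with 789 and 950 against 1809 and above (-2.20 ± 0.22, adjusted p = 3.1e-05). By their brightest probe sets, heart was the low end for PiT1 and the high end for PiT2. The dimmer Slc20a2 probe set, 1451768_a_at, was not called in heart (0.99 ± 0.42, limma adjusted p = 0.10). It had 4910 (one-cycle) and 686 (BIIB) there against a median of 774 elsewhere.

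In ovary and embryo, a few carriers of the kidney were the lowest of the 8 tissues. In ovary, Slc13a1 had 23.3 and 11.3 (-1.96 ± 0.38) and Slc22a2 had 22.5 and 16.6 (-1.53 ± 0.44), the lowest of the 8 tissues in each protocol. The ovary call of Slc13a1 was lost without the ovary BIIB array (adjusted p = 0.10). That of Slc22a2 was lost without the protocol term (adjusted p = 0.12), with the smaller pseudocount (adjusted p = 0.056) and without either ovary array (adjusted p = 0.21 and 0.22). In embryo, Slc26a4 was the lowest of the 8, with 37.7 and 12.2 (-1.75 ± 0.48), a call lost without the protocol term (adjusted p = 0.086) and without either embryo array (adjusted p = 0.20 and 0.14). These signals lie at the dim end of the scale, where the pseudocount sets most of the value. Other carriers that were highest in kidney went the other way. Slc5a1 was called higher in embryo (1.35 ± 0.43, adjusted p = 0.047), a call lost in all 7 alternatives run for it, and Slc22a5, named here after its values were seen, was called higher in ovary (1.11 ± 0.29, adjusted p = 0.019). Slc12a8, a cation chloride cotransporter family member too dim to be tested and named after its values were seen, had 1142 and 1137 in ovary, above the other 14 arrays (at most 749).

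Genes that work beside these carriers were taken from a list of 61, of which 44 could be tested in the tissues. In kidney 15 of 44 rose and 6 fell (10.6% and 12.4% of all probe sets, with shares in the same order below). Those that rose included Fxyd2, the renal sodium pump subunit (7.84 ± 0.35), the scaffold Pdzk1 (6.66 ± 0.32) and the transcription factor Hnf4a (5.79 ± 0.27). The carbonic anhydrases Car12 and Car4 rose too (4.51 ± 0.31 and 3.60 ± 0.29). As groups they did not all rise. The sodium pump genes had 2 higher and 3 lower of 8 tested (median -0.82). Chaperones and scaffolds had 2 and 0 of 5 (-0.30), and carbonic anhydrases 5 and 1 of 11 (-0.08). The median of all partners in kidney was -0.32. On the arrays labelled brain 14 rose and 18 fell (10.7% and 24.0%). Among those that rose were the bile salt export pump Abcb11 (5.71 ± 0.34), Hnf4a (5.58 ± 0.27) and the nuclear receptor Nr1i3 (5.21 ± 0.41). On the arrays labelled liver 12 rose and 12 fell (15.3% and 19.4%), with the pump subunits Fxyd7 (4.36 ± 0.34) and Atp1b2 (4.21 ± 0.46) higher. In spleen 5 rose and 19 fell (14.8% and 19.5%), and Car1, a red cell carbonic anhydrase, was 7.54 ± 0.40 higher. The carbonic anhydrases as a group went the other way there, with 2 higher and 7 lower of 11 tested (median -1.27). Lung had 7 higher and 12 lower, heart 9 and 13, embryo 9 and 4, and ovary 7 and 11.

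Between protocols, with tissue held fixed, 2 of 93 members were called higher with BIIB and 20 lower. Of all probe sets, 12.3% were called higher and 24.4% lower, 36.6% in all. The member median was -0.44 and that of all probe sets -0.27. With quantile normalization 5 members were higher and 15 lower (15.7% and 17.9% of all), so part of the one-sidedness moves with the scaling. The shift of all probe sets was -0.04 with that scaling.

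The 4 largest protocol differences among members were of scaffold probe sets. All 3 probe sets of Slc9a3r1 were lower with BIIB in 8 of 8 tissues, with differences of -2.96 ± 0.25, -2.07 ± 0.22 and -1.92 ± 0.19. The brightest of them had a median of 8161 (2713 to 27770) with one-cycle and 1244 (11.7 to 5360) with BIIB labelling (adjusted p = 1e-06). Slc9a3r2 split by probe set. Its probe sets 1439368_a_at and 1439369_x_at were lower with BIIB in 8 of 8 tissues (-2.72 ± 0.26 and -2.20 ± 0.21). The 4 others differed by between -0.01 and 0.25, and none was called.

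**Figure D4:**
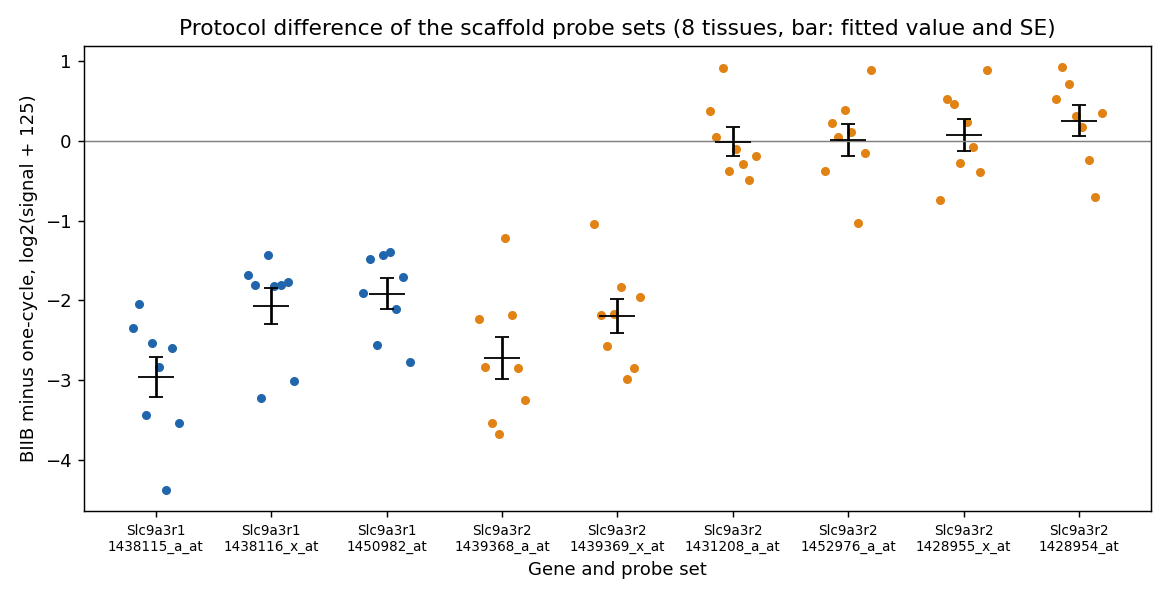
Difference between BIIB and one-cycle labelling in log2 signal (pseudocount added), for the 3 Slc9a3r1 and 6 Slc9a3r2 probe sets. Points are the 8 tissues and black bars the fitted value with its SE, and all 8 tissues lie below 0 for the 3 Slc9a3r1 probe sets and 2 of the Slc9a3r2 probe sets.

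Among the transporters, Slc16a1 was lower with BIIB in 8 of 8 tissues, with a median of 2198 (1035 to 8369) against 7589 (4741 to 22886) with one-cycle labelling (-1.87 ± 0.20, adjusted p = 1e-05). Slc16a11 fell by 1.81 ± 0.24, Slc23a2 by 1.64 ± 0.22, Slc10a6 by 1.63 ± 0.16, Slc13a2 by 1.32 ± 0.21, Slc22a5 by 1.21 ± 0.19 and Slc23a1 by 1.16 ± 0.28. Without the tissue term the calls of Slc23a2, Slc13a2, Slc22a5 and Slc23a1 were lost (adjusted p = 0.053, 0.16, 0.22 and 0.35). With quantile normalization Slc13a2, Slc22a5 and Slc23a1 differed by less than 2-fold, as did Slc23a1 without the arrays labelled brain. The adaptor Slc4a1ap went the other way, higher in 8 of 8 tissues with a median of 2573 against 990 (1.15 ± 0.26, adjusted p = 0.0022), and its difference was under 2-fold without heart. The other higher call was a dimmer probe set of Slc5a2, 1419166_at (1.32 ± 0.35), while the brighter one differed by -0.10 ± 0.24 and was not called. The protocol therefore did not shift all probe sets of one gene alike.

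In the sorted lymphocytes, T cell markers summed to 125028 to 158499 on the 3 arrays of T cells alone and B cell markers to 272005 to 430135 on the 3 of B cells alone. With 100 cells, none of 102 members tested was called between B and T cells (limma), and 0.240% of all 18327 probe sets were (0.164% higher and 0.0764% lower in B cells). Without adjustment 8 members had p below 0.05, and 1200 of all probe sets. The median SE of a member was 1.23 on the log2 scale, so differences of a few fold were not detectable with these arrays. A slope on the share of B cells over all 18 arrays called 3 of 103 members tested, against 1.18% of all 18354 probe sets: Slc12a7, Slc20a1 and Slc16a6, of which Slc12a7 and Slc16a6 were chosen for description after their values were seen.

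Slc12a7 had 7676 and 6104 in 100 T cells, 17578 in 500 T cells, 35.1 and 167 in 100 B cells and 152 in 500 B cells. The 3 T cell arrays were all above the 3 B cell arrays. The difference with 100 cells was -5.01 ± 1.02 (adjusted p = 0.056) and the slope -5.0. Slc20a1 had 30293, 17556 and 17768 in T cells and 2762, 1260 and 7882 in B cells, in the same order, again without overlap (-3.54 ± 1.05, adjusted p = 0.38, slope -3.11). Slc16a6 ran the other way with 88.3, 76.7 and 2678 in T cells and 11027, 3829 and 5972 in B cells (5.00 ± 1.12, adjusted p = 0.10, slope 3.48). The 500 T cell array was far above both 100 T cell arrays for that gene. Macrophage markers summed to 856 to 6380 on the T cell arrays and to 8468 to 109774 on the B cell arrays, and their part in the Slc16a6 difference was not tested. All lymphocyte arrays came from 1 mouse, so they show no spread between animals.

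**Figure D5:**
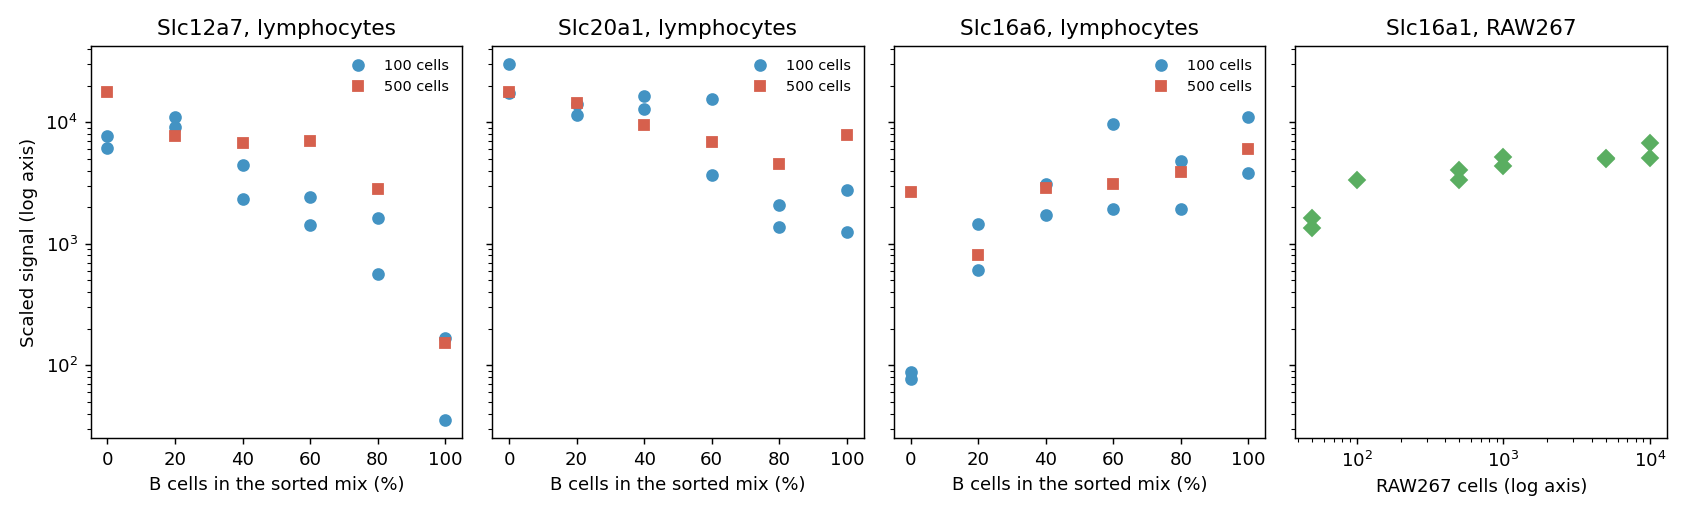
Scaled signal (log axis) of Slc12a7, Slc20a1 and Slc16a6 against the share of B cells in the sorted mix (blue circles 100 cells, red squares 500 cells), and of Slc16a1 against the number of RAW267 cells (log axis). Slc12a7 drops to 35.1 to 167 in the B cell arrays, and Slc16a1 is lowest in the arrays of 50 cells.

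RAW267 cells were set beside the lymphocytes with cell number as a covariate. Of 72 members tested, 4 were higher in RAW267 and 40 lower (13.4% and 30.4% of all 16428 probe sets, 43.8% in all). Members had a median of -1.18 and all probe sets -0.45. With quantile normalization, under which the median of all probe sets is -0.003, the split was 6 higher and 9 lower (15.5% and 11.9% of all), and 13 of the 44 calls were kept. The median signal of a lymphocyte array was 776 to 1171 and that of a RAW267 array 368 to 570, and its part in the lower calls was not tested. The excess of lower over higher calls therefore depended on the scaling.

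The 4 members called higher in RAW267 were Slc26a2, Slc4a2, Slc16a1 and Slc23a2. Slc16a1 had a median of 4336 (1346 to 6694) in 11 RAW267 arrays and 1141 (97.0 to 6087) in 18 lymphocyte arrays (1.21 ± 0.40, adjusted p = 0.013). Slc26a2, a sulfate carrier, had a median of 4270 (312 to 24758) and 1203 (122 to 11267) by one probe set (1.5 ± 0.56, adjusted p = 0.028). Its other probe set went the opposite way (-1.15 ± 0.38, adjusted p = 0.015). Slc4a2, a widely expressed anion exchanger, had 1548 (798 to 7068) and 656 (107 to 5055), and its call was lost without the cell number covariate (1.27 ± 0.50 against 0.96, adjusted p = 0.061). Slc23a2 had 1941 (556 to 4213) and 662 (167 to 3063), with an adjusted p of 0.048 (1.01 ± 0.42). All 4 overlapped between the groups, and with arrays of 500 cells alone none was called.

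Among the lower calls, Slc13a3, a sodium dicarboxylate carrier, did not overlap: the 18 lymphocyte arrays had 2309 to 9489 (median 4036) and the 11 RAW267 arrays 232 to 1502 (median 733). The difference was -1.91 ± 0.29 (adjusted p = 4.4e-06). Slc22a8 had a median of 1570 (162 to 4120) and 171 (17.9 to 333), a difference of -2.76 ± 0.38 (adjusted p = 7.4e-07). Both calls held in every alternative run for them. Slco3a1 had 1493 (49.6 to 7500) in lymphocytes and 32.4 (11.7 to 311) in RAW267 (-2.61 ± 0.63, adjusted p = 0.0012). Slc4a4 differed by -1.94 ± 0.33. Slco3a1 and Slc4a4 were not called with arrays of 500 cells alone (adjusted p = 0.13 and 0.15). On the spleen tissue arrays Slc13a3 had 324 and 213 and Slc22a8 39.8 and 181, below the lymphocyte medians although the sorted cells came from spleen.

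Slc20a1 was high in both cell types and did not pass the test. It had a median of 10427 (1260 to 30293) in lymphocytes and 8427 (6233 to 17275) in RAW267 (0.13 ± 0.48, adjusted p = 0.84). Slc16a6 had 2785 (76.7 to 11027) and 4519 (2746 to 11627), with a difference of 1.22 ± 0.56 (adjusted p = 0.072). Of the 36 companion genes tested here, 7 rose and 14 fell (13.4% and 30.4% of all probe sets). They included Bsg, the chaperone of MCT1, which was 2.63 ± 0.49 higher in RAW267, and Emb, another chaperone of monocarboxylate carriers, which differed by -4.32 ± 0.79.

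Over RAW267 cell number, 1 of 28 members tested changed, against 2.94% of all 11480 probe sets (2.26% higher and 0.679% lower with more cells). Slc16a1 had 1346 and 1634 in 50 cells, 3322 in 100, 4052 and 3348 in 500, 4336 and 5189 in 1000, 4998 and 5117 in 5000, and 6694 and 5109 in 10000. The 2 arrays of 50 cells lay below all others, and the fitted change from 50 to 10000 cells was 1.64 ± 0.33 (adjusted p = 0.037). Without the first array of 50 cells it was 1.36 (adjusted p = 0.057), and the call was lost in 8 of the 11 fits that left out 1 array. Slc5a3, the inositol carrier, named after its values were seen, ranged from 32.4 to 6772 over the 11 arrays, with a fitted change of 3.66 ± 0.91 that did not pass (adjusted p = 0.050).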

How the data were processed

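Mouse Affymetrix arrays were analysed from the series' value table. The intensity values were made by the authors with MAS5, per the submitters' processing notes, which give no version or setting. Each array's mean after trimming 2% at each end was already 2500.23 to 2502.45, and arrays were rescaled to 2501.24. Gene names came from the platform annotation: of 22690 probe sets, 20393 carried 1 symbol, 691 several and 1606 none, and 2 of the probe sets with several symbols would otherwise match the rule. All 142 members matched RefSeq (GRCm38.p6) by Entrez identifier.

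Values were tested as log2(signal + 125) with limma 3.58.1 in R 4.3.3, without control probe sets and after a filter on a mean signal of 500, with Benjamini-Hochberg adjustment over all probe sets tested. Tissue fits held tissue and protocol terms, the B against T fit a term per mixing ratio, and the RAW267 against lymphocyte fit log10 of cell number. Array number limits the precision. The fits were tested on simulated data. For each gene the brightest tested probe set was named. For each tissue these were the called members highest (up to 12) or lowest (up to 4) of the 8 tissues in both protocols, for other comparisons up to 8 called each way, plus a list of carriers described throughout. The members, gene lists, motifs and alternatives were chosen with earlier results of these data known. The 58 arrays of universal reference RNA were used only to look for signal in untested members. Of the 49 members not tested in the tissues, 0 had a mean of at least 500 on its 4 one-cycle arrays with all 4 above every one-cycle tissue array. Alternatives were quantile normalization, a pseudocount of 25, no filter, other covariates, fewer arrays and each array left out.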

Additional observations from a re-analysis of the deposited data

Results flagged for a closer look

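Slc10a1 was called lower in RAW267 than in lymphocytes over all cell numbers (-1.65 ± 0.49, limma adjusted p = 0.0068), a call lost with quantile normalization (adjusted p = 0.15), and the direction differed with cell number. At 100 cells the single RAW267 array (964) lay 0.38 above the mean of the lymphocyte arrays on the log2 scale, and at 500 cells both RAW267 arrays (379 and 67.8) lay below them, by -2.18 on average. Whether the 2 differences differ was not tested. The lymphocyte arrays of 100 cells ranged from 67.1 to 4035.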

How the results depend on the processing

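No call of a named member turned direction under an alternative. Apart from left-out arrays, 814 of these calls under an alternative held and 182 were lost, and with an array left out 314 held and 121 were lost. Counts of called members that moved by more than 1.5 times were as follows. Without the protocol term, 33 members were called for the arrays labelled brain, 6 for embryo, 8 for heart, 27 for those labelled liver, 16 for lung, 6 for ovary and 28 for spleen, against 55, 20, 27, 42, 47, 27 and 53, and kidney had 44 against 54. A pseudocount of 25 gave 17 for ovary, and the protocol comparison without tissue terms gave 13 against 22. The slope over all lymphocyte arrays gave 3 against 0. For RAW267 against lymphocytes, quantile normalization gave 15, no filter 85 and arrays of 500 cells alone 4, against 44. For the RAW267 trend, no filter gave 0 against 1. Leaving out each array gave 33 to 43 for the arrays labelled brain, 5 to 13 for embryo, 11 to 22 for heart, 38 to 43 for kidney, 30 to 31 for those labelled liver, 21 to 28 for lung, 5 to 11 for ovary, 30 to 35 for spleen, 19 to 25 for the protocol, 0 for B against T and 0 to 4 for the RAW267 trend. A fit that leaves a tissue with 1 array assumes that array to vary like the others. Without the arrays labelled brain and liver, kidney had 48. In fits added after seeing the data, the arrays labelled brain had 53 without those labelled liver, and the latter 38 without the former. Deviations of same-numbered arrays had correlations of 0.013 to 0.086 in lymphocytes and -0.049 to 0.23 in RAW267. The main fits held no pairing term. Such correlations cannot tell whether same-numbered arrays were prepared together. With a replicate block, B against T gave 0 and the RAW267 trend 4. The RAW267 block fit also left out the only array of 100 cells. Of all probe sets, that fit called 927 higher and 221 lower. Without that array and with no block, 1082 were higher and 291 lower, against 260 and 78 in the main fit. The block was not tested with that array kept. The causes were not tested.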
